A study of Mus musculus with 8 samples.

Results

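The guide strands of the miR-106b-25 and miR-106a-363 clusters, the paralog clusters of miR-17-92, were followed through 8 small RNA libraries of mouse spleen CD8+ T cells. The members were chosen by name as the 7 mature miRNAs mmu-miR-106b-5p, mmu-miR-93-5p and mmu-miR-25-3p of miR-106b-25 and mmu-miR-106a-5p, mmu-miR-18b-5p, mmu-miR-20b-5p and mmu-miR-363-3p of miR-106a-363, written below without the species prefix. They are 7 of the 1978 mature names in the deposited table, and each stood in 1 row. The libraries fall into 4 groups of 2, WT TN, WT MP, mCre TN and mCre MP, which combine a genotype with a sorted subset.

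All cells were CD8+ T cells enriched on beads and then sorted by CD8, CD4, CD44 and CD122. The abbreviations TN, MP and (in the design text) VM are not explained in the labels. TN is commonly read as true naive, and VM as virtual memory, a naive-derived subset with memory markers. WT is wild type, and mCre cells come from mice with Cre, a recombinase that deletes marked DNA; the series title ties them to miR-29. The sources used here leave out the promoter of the Cre, the deleted sequence, any pooling of mice and the age of each mouse, since the protocol covers adult and neonatal spleens. Nothing in them ties the 2 libraries of a group to different mice. The p-values therefore measure only how far these libraries differ, and that spread can be technical.

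Totals ran from 1936597 to 5230975 miRNA counts per library. The summed miR-29 guides (miR-29a-3p, miR-29b-3p and miR-29c-3p) did not order the TN libraries by genotype. The library labelled WT TN replicate 2 held 840.5 CPM (the library-scaled count, after TMM normalization) and that labelled mCre TN replicate 2 held 16100 CPM. In replicate 1 it was 2867 CPM in WT TN and 1469 in mCre TN. The order in replicate 2 is opposite to a loss of miR-29 in mCre, but the labels state no direction. Each comparison of members that uses TN libraries is therefore also given without both TN libraries numbered 2. The levels and group means are not. The lymphocyte markers miR-150-5p, miR-142a-3p, miR-142a-5p, miR-342-3p and miR-181a-5p summed to 46004 to 180874 CPM, while the myeloid miR-223 strands summed to at most 12.2 CPM. Erythroid markers summed to 37.9 to 156.8 CPM, most of it miR-486a-5p, with miR-144-3p at 0 in every library but the one labelled mCre TN replicate 2. Endothelial and stromal markers summed to 24.2 to 97.3 CPM, with miR-145a-5p at 0 in every library but mCre MP replicate 2.

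A mature miRNA guides the silencing complex to target mRNAs mainly through its seed, bases 2 to 8 from the 5' end, so miRNAs with the same seed share most of their predicted targets. In mammals the miR-17-92 cluster was copied during evolution, and the copies hold members of the miR-17, miR-18, miR-19 and miR-25/92 seed families. In T cells the miR-17 family is known for promoting proliferation and survival after activation, in part by limiting the pro-apoptotic protein BIM and the cell cycle inhibitor p21. miR-106b-25 lies in the gene of the replication factor Mcm7, and miR-106a-363 lies on the X chromosome. Bulk levels cannot tell fewer cells that hold a miRNA from less of it per cell.

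The mature sequences show the families, with the seed in capitals. Sequences and positions are from RefSeq on GRCm38.p6 (mm10), in which all 7 members and 8 of 9 partner strands were found, and miR-363-5p is named only.
miR-106b-5p: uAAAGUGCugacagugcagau
miR-93-5p: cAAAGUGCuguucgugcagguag
miR-106a-5p: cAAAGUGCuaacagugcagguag
miR-20b-5p: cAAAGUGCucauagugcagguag
miR-18b-5p: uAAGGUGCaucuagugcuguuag
miR-25-3p: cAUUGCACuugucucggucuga
miR-363-3p: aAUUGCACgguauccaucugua
The first 4 carry the miR-17 seed, miR-18b-5p carries the miR-18 seed, and miR-25-3p and miR-363-3p carry the miR-25/92 seed. Outside the seed the miR-25/92 members are unlike each other, with 13 mismatches over 22 bases.

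Some paralogs of miR-17-92 that share these seeds are shown for comparison, since they set how well reads can be told apart.
miR-17-5p: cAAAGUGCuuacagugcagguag
miR-20a-5p: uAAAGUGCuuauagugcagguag
miR-92a-3p: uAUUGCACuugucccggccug
miR-106a-5p differs from miR-17-5p by 1 base (A10U, counted from 1 at the 5' end of miR-106a-5p), and miR-20b-5p differs from both miR-20a-5p and miR-106a-5p by 2 bases. Read values of miR-106a-5p were whole numbers, to within 0.011, in 1 of 8 libraries and those of miR-20b-5p in 2 of 8, and those of miR-25-3p in 3 of 8, against 8 of 8 for miR-106b-5p, miR-93-5p and miR-363-3p. Reads therefore appear to have been divided between near-identical names, and the single values of miR-25-3p, miR-106a-5p, miR-20b-5p, miR-17-5p and miR-20a-5p are uncertain to that extent.

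The miR-106b-25 hairpins lie within chr5:138165321-138165818 (GRCm38) on the minus strand, 498 bases inside Mcm7 (138164583 to 138172422, same strand). Mir106b (138165737 to 138165818) is intronic in every annotated Mcm7 transcript. Mir93 (138165523 to 138165610) and Mir25 (138165321 to 138165404) are intronic in the coding transcripts and lie in an exon of a retained-intron transcript. The 6 hairpins of miR-106a-363 lie within chrX:52741693-52742567 on the minus strand, over 875 bases. Of these only Mir106a (52742503 to 52742567) meets another annotated gene, by 5 bases in an exon of the noncoding RNA Kis2. Mature miR-19b-3p and miR-92a-3p can come from this cluster and from miR-17-92 on chromosome 14, so they are described as paralogs.

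miR-25-3p was by far the most abundant member. It took 1.503% and 1.13% of all miRNA counts in WT TN replicates 1 and 2, 1.98% and 1.79% in mCre TN, 1.62% and 1.70% in WT MP, and 0.856% and 1.20% in mCre MP. In CPM it ran from 9701 in mCre MP replicate 1 to 18124 in WT MP replicate 2, a 1.87-fold range. By its range of log2 CPM it stood at percentile 5.24 of the 382 miRNAs tested, among the least variable. Reads of different miRNAs are ligated with different efficiency, so an order between miRNAs is an order of read levels.

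miR-25-3p made up 91.9% to 98.8% of the miR-106b-25 guides (median 96.3%), miR-93-5p 1.06% to 5.72%, and miR-106b-5p 0.148% to 2.39%. Within miR-106a-363, miR-363-3p took 25.4% to 75.1% (median 56.2%), miR-20b-5p 18.3% to 53.8%, miR-106a-5p 3.32% to 20.6% and miR-18b-5p at most 3.32%. These shares are of the members only, without miR-19b-3p and miR-92a-3p, which miR-106a-363 can also yield. Among the members of each cluster the leading guide by its median share was thus the one with the miR-25/92 seed. miR-20b-5p was above miR-363-3p in WT TN replicate 1 (456.1 against 215.8 CPM), mCre TN replicate 1 (240.1 against 237.9) and WT MP replicate 1 (306.4 against 275.1), and below it in the other libraries.

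The miR-17 seed members varied far more between libraries. miR-106b-5p stood at 316.4 and 18.6 CPM in WT TN replicates 1 and 2, 91.7 and 175.7 in mCre TN, 96.2 and 109.0 in WT MP, and 15.9 and 27.7 in mCre MP. These values rest on 1182, 33, 552, 507, 356, 400, 30 and 71 counts in the same order. The library labelled WT TN replicate 2 sat with both mCre MP libraries at the bottom, a 19.9-fold range from top to bottom.

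miR-93-5p, its neighbour in the same cluster, stood at 757.3 and 134.6 CPM in WT TN, 504.0 and 1054 in mCre TN, 615.8 and 662.3 in WT MP, and 103.8 and 182.7 in mCre MP. miR-20b-5p stood at 456.1 and 41.1 CPM in WT TN, 240.1 and 121.7 in mCre TN, 306.4 and 215.9 in WT MP, and 35.0 and 81.0 in mCre MP. For both, the lowest 3 libraries were again WT TN replicate 2 and both of mCre MP. miR-106a-5p, the near copy of miR-17-5p, stood at 175.1 and 7.89 CPM in WT TN, 71.8 and 55.8 in mCre TN, 91.1 and 72.8 in WT MP, and 6.36 and 31.2 in mCre MP, with the same 3 libraries lowest.

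miR-363-3p stood at 215.8 and 101.4 CPM in WT TN, 237.9 and 420.5 in mCre TN, 275.1 and 335.5 in WT MP, and 143.5 and 161.7 in mCre MP. Its range was 4.15-fold, and the same 3 libraries were the lowest. These 3 were also lowest for miR-17-5p, miR-18a-5p, miR-19a-3p, miR-20a-5p and miR-19b-3p of miR-17-92, but not for miR-92a-3p. The order is thus not particular to the members, and its share over all tested miRNAs was not counted. miR-18b-5p was barely detected, with 4, 0, 7, 20, 2, 7, 12 and 3 counts in WT TN, mCre TN, WT MP and mCre MP, replicates 1 and 2 of each. The count of 0 in WT TN replicate 2 allows up to 1.55 CPM before scaling, so no fold is given for this miRNA. Its sign is still included below wherever the directions of all members are counted.

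By group mean, miR-106b-5p was ordered WT TN (167.5 ± 210.6 CPM), mCre TN (133.7 ± 59.4), WT MP (102.6 ± 9.07) and mCre MP (21.8 ± 8.32; SD, n = 2 each). miR-93-5p was ordered mCre TN (779.3 ± 389.2), WT MP (639.0 ± 32.9), WT TN (446.0 ± 440.3) and mCre MP (143.3 ± 55.8). In both orders the libraries of the first 3 groups overlapped, and the SD of WT TN exceeded or nearly equalled its mean. WT TN replicate 2 also lay within the mCre MP range. It stood at 18.6 CPM within 15.9 to 27.7 for miR-106b-5p, and at 134.6 within 103.8 to 182.7 for miR-93-5p. miR-25-3p was ordered mCre TN (17632 ± 636), WT MP (16257 ± 2641), WT TN (12268 ± 138) and mCre MP (12026 ± 3288), in which mCre TN overlapped WT MP and WT TN overlapped mCre MP.

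miR-363-3p was ordered mCre TN (329.2 ± 129.1 CPM), WT MP (305.3 ± 42.7), WT TN (158.6 ± 80.9) and mCre MP (152.6 ± 12.8), with the same neighbours overlapping as for miR-25-3p. miR-20b-5p was ordered WT MP (261.1 ± 64.0), WT TN (248.6 ± 293.5), mCre TN (180.9 ± 83.7) and mCre MP (58.0 ± 32.6). miR-106a-5p was ordered WT TN (91.5 ± 118.2), WT MP (81.9 ± 12.9), mCre TN (63.8 ± 11.3) and mCre MP (18.8 ± 17.5). The mCre MP mean was thus the lowest of the 4 for each member but miR-18b-5p. WT TN replicate 2 lay within the mCre MP range for miR-20b-5p (41.1 CPM within 35.0 to 81.0) and miR-106a-5p (7.89 within 6.36 to 31.2).

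**Figure D1:**
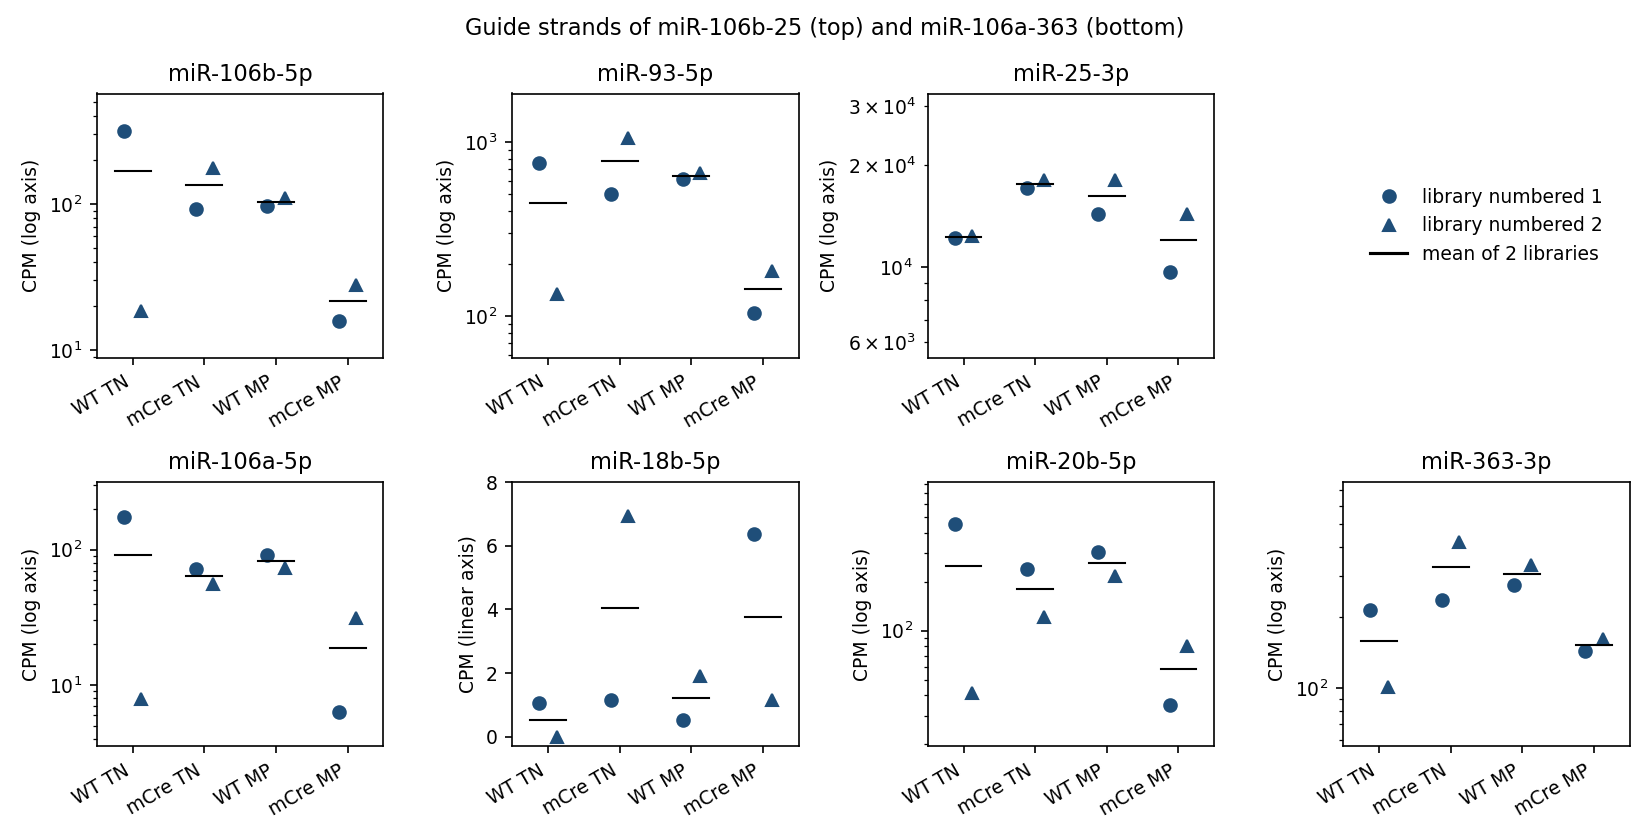
Level of each guide strand in the 8 libraries, in CPM after TMM scaling on a log axis (linear for miR-18b-5p), with circles for libraries numbered 1, triangles for those numbered 2 and lines for the mean of 2. Both mCre MP libraries and the WT TN library numbered 2 are the lowest 3 for miR-106b-5p, miR-93-5p, miR-106a-5p, miR-20b-5p and miR-363-3p, while miR-25-3p spans 1.87-fold.

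Summed by seed, the 4 miR-17 seed members reached 1705 and 202.2 CPM in WT TN, 907.6 and 1408 in mCre TN, 1109 and 1060 in WT MP, and 161.0 and 322.6 in mCre MP. The miR-17 seed guides of miR-17-92, miR-17-5p and miR-20a-5p, summed to 2731 and 201.7, 1055 and 512.7, 1336 and 900.5, and 170.5 and 351.8 CPM in the same order. Reads divided between miR-106a-5p and miR-17-5p, or between miR-20b-5p and miR-20a-5p, would move between these sums but not out of their total. The miR-17-92 sum was above the paralog sum in replicate 1 of every group and in mCre MP replicate 2. It was below in replicate 2 of mCre TN and WT MP, and marginally so in WT TN replicate 2 (201.7 against 202.2).

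The arms of a hairpin are cut from 1 precursor, and the Mir106b hairpin is shown with both arms in capitals because its arms varied differently across libraries.
Mir106b: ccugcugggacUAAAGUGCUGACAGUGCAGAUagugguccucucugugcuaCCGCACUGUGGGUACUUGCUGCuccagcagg
The 3' arm, miR-106b-3p, is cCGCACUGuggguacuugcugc with its own seed in capitals. It stood at 851.8 and 1106 CPM in WT TN, 1185 and 1039 in mCre TN, 931.4 and 984.4 in WT MP, and 833.1 and 1286 in mCre MP. It was more abundant than miR-106b-5p in every library, though miR-106b-5p is the arm with the family seed, and its highest value was in mCre MP replicate 2, where the 5' arm was among its lowest 3.

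miR-106b-5p therefore made up a changing share of the reads of its hairpin. It was 27.1% (95% Wilson interval 25.8% to 28.4%) in WT TN replicate 1 and 1.65% (1.18% to 2.31%) in replicate 2. It was 7.18% (6.63% to 7.78%) and 14.5% (13.3% to 15.7%) in mCre TN, 9.36% (8.48% to 10.3%) and 9.97% (9.08% to 10.9%) in WT MP, and 1.87% (1.31% to 2.66%) and 2.11% (1.67% to 2.65%) in mCre MP. Both WT MP libraries were above both mCre MP libraries, and WT TN replicate 2 was not above mCre MP. The intervals cover counting error only, and since the arm shares were picked after their values were seen they carry no test. The arms also differ in GC content (share of G and C bases), at 42.9% for miR-106b-5p and 63.6% for miR-106b-3p. The part of this in the arm shares was not tested.

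**Figure D2:**
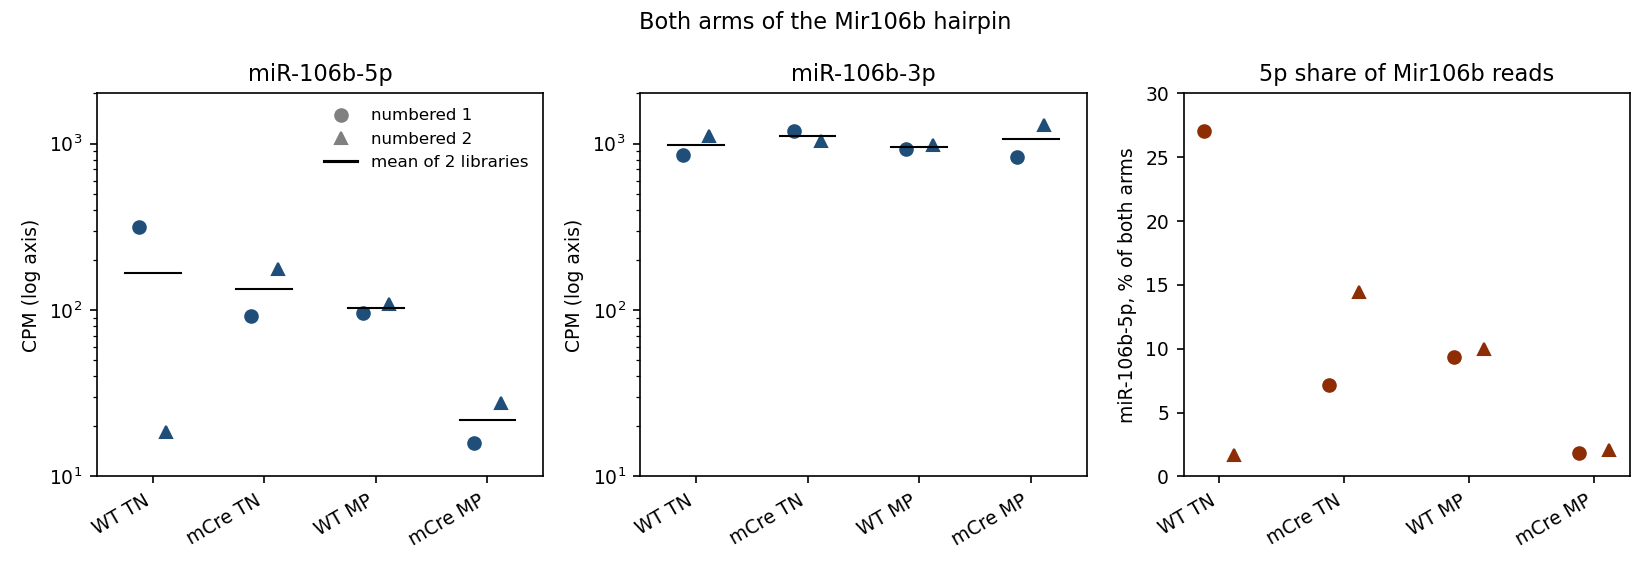
The arms of the Mir106b hairpin in the 8 libraries: CPM of miR-106b-5p and of miR-106b-3p on log axes, and the share of miR-106b-5p in the reads of both arms in percent. Lines are means of 2 libraries; the 3' arm stays between 833.1 and 1286 CPM while the 5' share spans 1.65% to 27.1%.

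At Mir25 the family arm dominated throughout, with miR-25-3p at 97.9% to 99.5% of the reads of both arms.
Mir25: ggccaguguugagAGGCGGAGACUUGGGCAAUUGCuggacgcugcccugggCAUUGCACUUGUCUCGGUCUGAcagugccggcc
The minor arm, miR-25-5p, stood at 66.65 and 163.4 CPM in WT TN, 103.5 and 108.8 in mCre TN, 92.7 and 100.6 in WT MP, and 209.2 and 177.2 in mCre MP. Its 3 highest libraries were the 3 in which the miR-17 seed members were lowest. The other strand of the X-linked miR-92a hairpin, miR-92a-2-5p, was also highest in these 3, at 63.7 CPM in WT TN replicate 2 and 55.6 and 43.2 CPM in mCre MP against at most 21.8 elsewhere.

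At Mir363 miR-363-3p took 60.8% to 90.0% of both arms, with 62.8% and 60.8% in WT TN, 66.2% and 90.0% in mCre TN, 73.4% and 82.7% in WT MP, and 72.3% and 66.1% in mCre MP. Its share thus did not order the libraries as the share of miR-106b-5p did. The remaining partner strands were scarce. miR-93-3p reached at most 12.5 CPM, miR-18b-3p 2.66 and miR-20b-3p 2.77, miR-106a-3p had 1 count in all, and miR-19b-2-5p had 0 counts, which allows up to 3 in each library.

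The genotypes were first compared within MP. Of the 7 members, 6 were lower in mCre, with a median log2 difference of -2.11, against 57.9% lower and a median of -0.23 over the 382 miRNAs tested. None of the 7 passed the edgeR quasi-likelihood test after adjustment over the 382, in which 0% of miRNAs were called; 1 of the 7 and 41 of the 382 had an unadjusted p under 0.05, and DESeq2 also called 0. All 7 members passed the filter on low counts.

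By miRNA, miR-93-5p was 143.3 ± 55.8 CPM in mCre MP against 639.0 ± 32.9 in WT MP (2 libraries each), a log2 difference of -2.16 ± 0.85 (SE; edgeR adjusted p = 0.411, unadjusted 0.0352). The difference was -2.23 ± 1.10 for miR-106b-5p (edgeR adjusted p = 0.411), -2.17 ± 1.03 for miR-20b-5p (0.411) and -2.11 ± 1.24 for miR-106a-5p (0.453). The 4 miR-17 seed members thus stood close together, each with an SE larger than the gaps between them. The miR-25/92 seed members differed less, by -1.0001 ± 0.57 for miR-363-3p (0.446) and -0.43 ± 0.40 for miR-25-3p (0.625).

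The partner strands did not share this order, with 2 of 5 tested lower and a median of 0.15. miR-106b-3p differed by 0.15 ± 0.50, miR-25-5p by 1.00 ± 0.55 and miR-92a-2-5p by 1.62 ± 0.98, none of which passed edgeR's test. Their GC content, 63.6%, 59.1% and 54.6%, was above that of each member (40.9% to 52.2%). The part of GC content in this contrast was not tested. Of the miR-17-92 guides all 6 were lower in mCre MP, with a median of -1.88 and none called. miR-17-5p differed by -1.96 ± 0.88 and miR-20a-5p by -2.17 ± 1.20, near the miR-17 seed members, and miR-92a-3p by -0.06 ± 0.35.

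Without overlap between the 2 WT MP and the 2 mCre MP libraries, 6 of 7 members were lower, all but miR-18b-5p. For miR-25-3p the gap was narrow (14350 CPM in mCre MP replicate 2 against 14390 in WT MP replicate 1). Over all miRNAs tested, 37.4% were lower and 27.2% higher without overlap, so such a separation was common here. Leaving out both TN libraries numbered 2, an alternative added after the data were seen that keeps all 4 MP libraries and changes the shared estimate of the spread, 4 members fell in mCre MP by edgeR's test. They were miR-106b-5p (-2.24, adjusted p = 0.0153), miR-93-5p (-2.17, 0.0153), miR-20b-5p (-2.18, 0.0153) and miR-106a-5p (-2.09, 0.0343), where 14.5% of the 433 miRNAs tested were called.

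**Figure D3:**
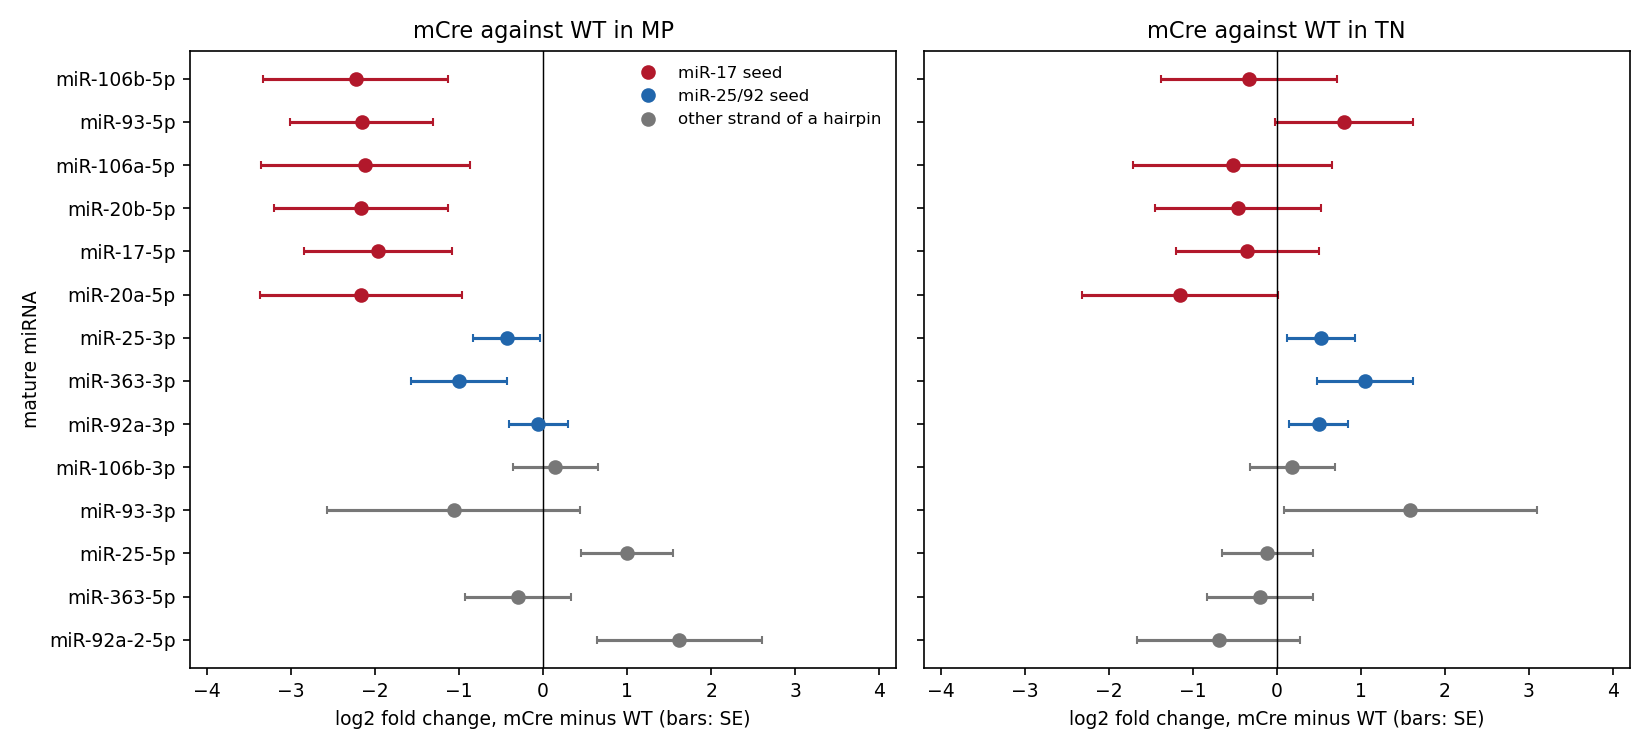
Log2 fold change of mCre over WT in MP (left) and in TN (right) from edgeR, for the tested members with a fold, the miR-17-92 paralogs of the same seeds and the partner strands; points are estimates and bars are 1 SE, coloured by seed. In MP the miR-17 seed guides lie between -2.23 and -1.96, and miR-92a-3p at -0.06; none passed the test.

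Base composition moved with the same difference. Over the 308 of 382 tested miRNAs with a sequence (80.6%), Spearman's rho across miRNAs between GC content and the log2 difference of mCre from WT in MP was 0.27; miRNAs of 1 library share its depth and are not independent replicates. The median difference was -0.99 for the 26 miRNAs under 35% GC, -0.58 for 80 between 35% and 45%, -0.19 for 119 between 45% and 55%, and 0.19 for 83 above. Of the members with a fold, from low to high GC, miR-363-3p (40.9%) differed by -1.0001 and miR-106b-5p (42.9%) by -2.23. At 47.8% GC each, miR-106a-5p differed by -2.11 and miR-20b-5p by -2.17. Then came miR-25-3p (50%) with -0.43 and miR-93-5p (52.2%) with -2.16. The part of GC content in the members' differences was not tested. With the GC trend removed from each library, another alternative added after the data were seen, the difference was -1.73 for miR-106b-5p, -2.10 for miR-93-5p, -1.93 for miR-20b-5p, -1.90 for miR-106a-5p, -0.27 for miR-25-3p and -0.38 for miR-363-3p.

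**Figure D4:**
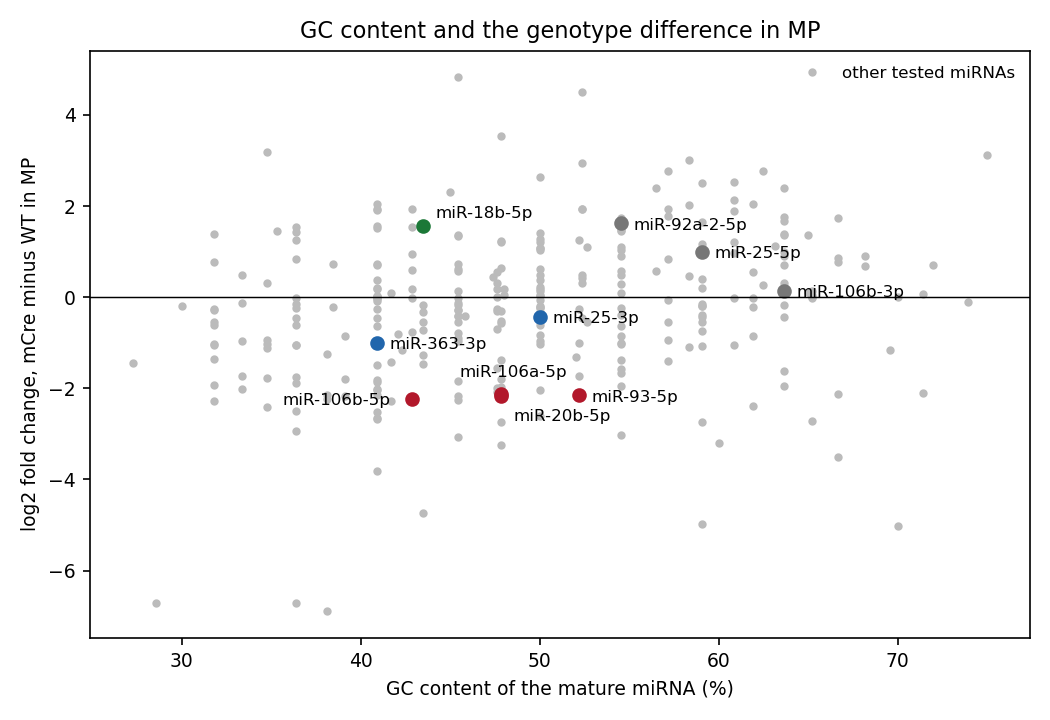
GC content of each mature miRNA in percent against its log2 fold change of mCre over WT in MP, for the 308 tested miRNAs with a sequence (grey). The members and the 3 partner strands that were higher in mCre are coloured and named. The miR-17 seed members (42.9% to 52.2% GC) lie near -2, miR-363-3p (40.9% GC) near -1 and miR-25-3p (50% GC) at -0.43.

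The markers of the sorted cells moved too. The lymphocyte list, 5 of 5 detected, summed to 46004 and 76686 CPM in mCre MP against 91164 and 113712 in WT MP, and 3 of the 5, miR-142a-3p, miR-142a-5p and miR-342-3p, were lowest in the same 3 libraries as the miR-17 seed members. The other 2 were not. miR-150-5p was lower in WT TN replicate 1 (49892 CPM) than in mCre MP replicate 2 (72678), and miR-181a-5p stood at 3516 CPM in WT TN replicate 2 but at 633.9 in WT MP replicate 1. The erythroid sum was 156.8 and 106.7 CPM in mCre MP and 100.8 in WT TN replicate 2, above the other 5 libraries (37.9 to 80.4), through miR-486a-5p. On the same list miR-451a went the other way. It stood at 1.59 and 0 CPM in mCre MP and 1.69 in WT TN replicate 2, against 2.16 to 8.92 elsewhere. The myeloid sum was 1.59 and 3.51 CPM in mCre MP against 12.2 and 11.4 in WT MP. The endothelial and stromal sum was 38.7 and 47.9 CPM in mCre MP against 97.3 and 68.7 in WT MP. On these lists miR-223-3p and miR-143-3p were lowest in the same 3 libraries as the miR-17 seed members, and the rest were not. The part of these shifts in the members' values was not tested.

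Within TN the members showed no common direction between genotypes. Of the 7, 3 were lower and 4 higher in mCre, with a median of 0.52 against 0.02 over all miRNAs, and none was called by edgeR or DESeq2 (0% called; 0 of 7 members and 12 of 382 miRNAs at an unadjusted p under 0.05). The log2 difference was -0.33 ± 1.04 for miR-106b-5p, 0.80 ± 0.82 for miR-93-5p, 0.52 ± 0.40 for miR-25-3p and 1.05 ± 0.57 for miR-363-3p, and all adjusted p from edgeR lay at 0.957 to 0.967. In mCre TN miR-25-3p, miR-363-3p and miR-18b-5p were higher in mCre without overlap, where 15.7% of all miRNAs were. Without both TN libraries numbered 2, 1 library against 1, no member was called; miR-93-5p turned to -0.60, miR-25-3p stood at 0.49 and miR-363-3p at 0.13, while miR-106b-5p, miR-106a-5p and miR-20b-5p stood at -1.798, -1.30 and -0.94.

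How far the genotype effect in MP differed from that in TN was then tested. The difference was below 0 for 7 of 7 members, with a median of -1.71 against -0.22 over all miRNAs, and 0 members and 0% of miRNAs were called by edgeR (2 of 7 and 54 of 382 at an unadjusted p under 0.05; DESeq2 called 4.71% and no member). miR-93-5p had -2.96 ± 1.18 (edgeR adjusted p = 0.308), miR-363-3p -2.05 ± 0.81 (0.300) and miR-25-3p -0.96 ± 0.57 (0.437). The value depends on which WT TN library is used. Without WT TN replicate 1, in which miR-106b-5p was highest, 5 members were called, miR-106b-5p at -5.20, miR-93-5p at -4.81, miR-106a-5p at -5.27, miR-20b-5p at -4.45 and miR-363-3p at -2.82 (edgeR adjusted p from 0.0176 to 0.0332), and 15.6% of 435 miRNAs were called. That leaves as the sole WT TN library the one labelled replicate 2, the TN library lowest in miR-29. Without that library instead, no member was called and the values were closer to 0, at -0.91 for miR-106b-5p, -2.12 for miR-93-5p, -0.60 for miR-106a-5p, -0.81 for miR-20b-5p, -1.54 for miR-363-3p and -0.91 for miR-25-3p. None was called without both TN libraries numbered 2 either, with -0.45 for miR-106b-5p, -1.57 for miR-93-5p, -0.80 for miR-106a-5p, -1.24 for miR-20b-5p, -1.17 for miR-363-3p and -0.94 for miR-25-3p.

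The subsets were compared within each genotype next; these comparisons use the same 8 libraries as those between genotypes. In WT, 5 of 7 members were higher in MP (median 0.41 against 0.05 over all) and none was called by edgeR (0% called; 0 members and 31 of 382 miRNAs at an unadjusted p under 0.05) or DESeq2 (2.62%). miR-25-3p differed by 0.41 ± 0.40 and miR-363-3p by 0.94 ± 0.57 (edgeR adjusted p = 0.669), both without overlap, where 26.2% of all miRNAs were higher. miR-20b-5p differed by 0.07 and changed sign with RLE factors (-0.05) and total count scaling (-0.14). No member was called without both TN libraries numbered 2 either; miR-25-3p stood at 0.30 and miR-363-3p at 0.38, and the miR-17 seed members at -1.74 (miR-106b-5p), -1.20 (miR-106a-5p), -0.91 (miR-20b-5p) and -0.36 (miR-93-5p).

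In mCre, 7 of 7 members were lower in MP, with a median of -1.64 against -0.18 over all miRNAs and 54.7% of them lower. The barely detected miR-18b-5p is among the 7. By edgeR none was called (0% called; 2 members and 82 of 382 miRNAs at an unadjusted p under 0.05), with miR-93-5p at -2.44 ± 0.86 (adjusted p = 0.211) and miR-106b-5p at -2.61 ± 1.11 (0.229). miR-20b-5p differed by -1.64 ± 1.02, miR-106a-5p by -1.75 ± 1.22, miR-363-3p by -1.11 ± 0.57 (0.271) and miR-25-3p by -0.55 ± 0.40. Of these, 6, all but miR-18b-5p, were lower without overlap, where 35.6% of miRNAs were lower and 29.6% higher. With no filter on low counts 2 members fell, where 2.74% of 877 miRNAs were called. DESeq2 called miR-93-5p among 10.7% of the miRNAs. Without both TN libraries numbered 2, which leaves 1 mCre TN library assumed to vary like the other groups, miR-106b-5p (-2.19), miR-93-5p (-1.93) and miR-20b-5p (-2.15) fell in MP, with 6.93% called. miR-106a-5p (-2.001), miR-363-3p (-0.79) and miR-25-3p (-0.65) did not pass.

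Over both genotypes together, 6 of 7 members were lower in MP, with a median of -0.78 against -0.04, and none was called where edgeR called 9 of 382 miRNAs (2.36%) and DESeq2 6.81%. At an unadjusted p under 0.05 stood 0 members and 50 of 382 miRNAs. miR-106b-5p was 62.2 ± 47.2 CPM in MP against 150.6 ± 127.8 in TN (SD, n = 4 each), a log2 difference of -1.65 ± 0.84 (edgeR adjusted p = 0.470). miR-93-5p differed by -0.96 ± 0.85 (0.742), miR-106a-5p by -0.95 ± 0.89 (0.763) and miR-20b-5p by -0.78 ± 0.77 (0.774). miR-25-3p differed by -0.07 ± 0.34 (14141 ± 3449 CPM for MP, 14950 ± 3120 for TN) and miR-363-3p by -0.08 ± 0.56. No member separated the 4 MP from the 4 TN libraries, while 4.45% of miRNAs were lower in MP without overlap and 6.81% higher.

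This comparison also turns on the TN libraries numbered 2. Without the library labelled WT TN replicate 2, miR-106b-5p fell in MP by 2.27 on the log2 scale (edgeR adjusted p = 0.0137), with 9.38% of 437 miRNAs called. Without both TN libraries numbered 2, miR-106b-5p (-1.97, 0.00437) and miR-20b-5p (-1.57, 0.0369) fell, with 11.3% of 433 miRNAs called. miR-106a-5p (-1.61), miR-93-5p (-1.22), miR-363-3p (-0.24) and miR-25-3p (-0.20) did not pass.

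Ratios within a library do not depend on the scaling, and 8 of 9 pairs held at least 10 counts of both miRNAs in every library. In log2 counts, miR-93-5p exceeded miR-106b-5p by 2.28 ± 0.70 in TN libraries and 2.67 ± 0.05 in MP libraries (SD, n = 4 each; exact two-sided permutation p = 0.371, adjusted 0.8 over the 8 pairs). The ratio was 2.60 to 2.72 in the 4 MP libraries, and in TN it was 1.26 in WT TN replicate 1 and 2.46 to 2.84 in the other 3. Without WT TN replicate 1 the difference between subsets went from 0.39 to 0.04. miR-25-3p exceeded miR-106b-5p by 7.21 ± 1.71 in TN and 8.21 ± 1.06 in MP (exact p = 0.4, adjusted 0.8).

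Against its paralog, miR-25-3p stood below miR-92a-3p by a log2 ratio of -2.37 ± 0.22 in TN and -2.70 ± 0.29 in MP (exact p = 0.171, adjusted 0.8). The ratio of miR-106b-5p to miR-17-5p was -1.38 ± 0.71 in TN and -2.01 ± 0.37 in MP (exact p = 0.2, adjusted 0.8). The remaining 4 ratios, miR-363-3p to miR-20b-5p, miR-93-5p to miR-20a-5p, miR-20b-5p to miR-20a-5p and miR-106a-5p to miR-17-5p, differed between subsets by 0.38, -0.19, 0.13 and -0.06, each with an adjusted exact p of 0.914. No pair passed. The smallest exact p that 4 against 4 libraries allow is 0.0286, which after adjustment over 8 pairs could pass only if several pairs reached it together, so a miss says little. The differences without both TN libraries numbered 2, in the order the 8 pairs are named here, were 0.81, 1.803, -0.52, -0.58, 1.42, 0.86, 0.42 and -0.42. With so few TN libraries left the exact test could not pass for any pair.

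Of tested miRNAs outside the 3 clusters with the miR-25/92 seed, miR-32-5p differed by -0.62 ± 0.64 between mCre and WT in MP (edgeR adjusted p = 0.648) and miR-92b-3p by 0.91 ± 0.55 (0.455). The miRNAs nearest in pattern to the summed miR-106b-25 guides were miR-200c-3p, miR-3068-3p and miR-194-2-3p, with a root mean square difference of centred log2 CPM over the 8 libraries of 0.16, 0.17 and 0.22, against a median of 0.95 over 375 candidates. That sum is mostly miR-25-3p. Nearest to the summed miR-106a-363 guides were miR-141-3p (0.24), miR-30b-5p (0.26) and miR-652-3p (0.30), against a median of 1.12.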

How the data were processed

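The authors deposited 1 table of expected counts, 2128 rows of mature miRNA and precursor in 8 columns; that reads were divided between rows was read from the values. The genome build was mm10, per the submitters' processing notes; the aligner, counter and annotation: not given in the sources used here. Libraries were made with a ligation kit, per the labels' protocols. All 8 columns were matched to sample titles, and 0 columns were left unused.

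Rows of 1 mature name were summed and rounded to whole counts. filterByExpr (minimum count 10, minimum total 15) left 382 of 877 detected miRNAs. TMM scaling and the quasi-likelihood F test of edgeR 4.0.16 (R 4.3.3, limma 3.58.1) were used with Benjamini-Hochberg adjustment over all 382 at 0.05, in a 4-group fit (4 residual degrees of freedom) and an additive fit of subset and genotype (5). DESeq2 1.42.0, other scalings, no filter, a replicate block and leaving out each library were alternatives. Log2 ratios used a pseudocount of 0.5 and exact permutation tests. Shares carry 95% Wilson intervals, and a count of 0 is read as up to 3 counts.

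Named miRNAs are the 7 members, their partner strands, the 6 miR-17-92 guides, and the 3 miRNAs nearest to each cluster's sum; miR-32-5p and miR-92b-3p, the other tested miRNAs with a member's seed, were added after their values were seen. Cell type markers and the miR-29 guides come from further lists. Members, lists and tests were chosen with earlier results of these data known.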

Additional observations from a re-analysis of the deposited data

Results flagged for a closer look

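miR-18b-5p stood at 6.93 CPM (20 counts) in the library labelled mCre TN replicate 2, far from the other 3 TN libraries, which held 0 to 1.16 CPM. Its gap to the nearest library, relative to the range, passed Dixon's 95% critical value for 4 samples. Of 30 groups of 4 looked at, this was 1, where chance gives about 1 in 20.

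miR-25-3p was lower in mCre than WT in both MP libraries and higher in both TN libraries. It was also higher in MP than TN in WT and lower in mCre. The gap in MP was narrow, with 14350 CPM in mCre MP replicate 2 against 14390 in WT MP replicate 1. The difference of the effects was -0.96 on the log2 scale and did not pass edgeR's interaction test (adjusted p = 0.437). miR-363-3p showed the same opposite directions with a difference of -2.05, which did not pass either (edgeR adjusted p = 0.300). Both patterns use the TN libraries numbered 2, in which miR-29 was low in the library labelled WT and high in that labelled mCre.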

How the results depend on the processing

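Of the single values under the alternatives, 613 kept direction and side of the threshold, 22 kept direction and newly passed, and 33 changed sign; of counts, 98 stayed and 9 moved. Members past the threshold numbered 0 to 1 on leaving out 1 library and 2 without both TN libraries numbered 2 for MP against TN over both genotypes. In mCre they numbered 2 with no filter on low counts (2.74% of 877 miRNAs called) and 1 with DESeq2 (10.7% called). Over all alternatives MP minus TN in mCre ran from -3.14 to -2.19 for miR-106b-5p and from -2.98 to -1.93 for miR-93-5p. Members past the threshold in mCre also changed in number without WT TN replicate 1 or 2, which keeps every mCre library, and without both TN libraries. For mCre against WT in MP they numbered 4 without both TN libraries, and for the difference between subsets 0 to 5 on leaving out 1 library. The cause was not tested.

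On leaving out 1 library, MP against TN over both genotypes ran from -0.56 to 0.14 for miR-363-3p and from -0.28 to 0.0266 for miR-25-3p. In WT it ran from -0.88 to 2.70 for miR-20b-5p, -1.18 to 3.40 for miR-106a-5p, -1.72 to 2.49 for miR-106b-5p and -0.34 to 2.27 for miR-93-5p. mCre against WT in TN ran from -1.27 to 2.87 for miR-106b-5p, -1.45 to 3.05 for miR-106a-5p, -1.31 to 2.18 for miR-20b-5p and 0.0098 to 2.56 for miR-93-5p. Ratios ran from -0.15 to 0.81 (miR-363-3p to miR-20b-5p), -0.0661 to 0.31 (miR-20b-5p to miR-20a-5p), -0.37 to 0.34 (miR-106a-5p to miR-17-5p) and -0.69 to 0.48 (miR-93-5p to miR-20a-5p). In WT, miR-20b-5p turned to -0.0513 with RLE factors, -0.14 with total counts, -0.0506 with DESeq2, -0.91 without both TN libraries and -0.0597 with the GC trend removed. Without both TN libraries miR-93-5p turned to -0.36 in WT and -0.60 in TN, and its ratio to miR-20a-5p to 0.86.

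With the replicate block, members past the threshold stayed at 0 in every comparison, all-miRNA calls over both genotypes went from 9 to 2, and miR-106a-5p turned to 0.0724 in WT. Correlations of deviations between groups ran from -0.32 to 0.41, without a common sign. With 2 libraries in each group they cannot tell whether the replicate numbers pair libraries. Total count scaling moved the median of all miRNAs in mCre against WT in MP from -0.23 to -0.48. Depth limits miR-18b-5p, at 0 to 20 counts.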
